A study of Rattus norvegicus with 6 samples.

Results

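The cluster of miR-221 and miR-222 was examined in the myocardium of rats with and without myocardial infarction. Its members were taken as every miRNA probe set whose name on the array begins with rno-miR-221 or rno-miR-222, on any arm, whether detected or not. This gave 4 of the 758 miRNAs on the array, namely miR-221-3p, miR-222-3p, miR-221-5p and miR-222-5p, each with 2 distinct probes printed in 8 spots per array.

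Single-colour Agilent rat miRNA arrays were hybridised with Cy3-labelled total RNA, 1 rat per array. The model group (3 arrays) came from male Sprague–Dawley rats whose left anterior descending coronary artery had been ligated. The control group (3 arrays) came from male rats of the same strain in which the thread was passed without being tied. All hearts were taken 4 weeks after surgery, and the study's methods name the margin of the infarct as the sampled myocardium. The hearts for the arrays were a random choice from each group, and the ages of the rats are not given in the sources used here. The labels name no genetic change in any rat, and both groups had the chest opened. The tissue was a bulk sample, in which fewer cells of a type and less RNA per cell cannot be told apart, and which holds myocytes, vessels, fibroblasts and blood cells together.

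A miRNA is cut from a hairpin precursor, and its bases 2 to 8, the seed, pair with target messengers. Mir221 and Mir222 lie side by side on the X chromosome and are generally made from 1 shared transcript. Their 3p arms are the guide strands and the 5p arms the passenger strands. MiR-221-3p and miR-222-3p are known to restrain the cell cycle inhibitors p27 (Cdkn1b) and p57 (Cdkn1c) and the receptor Kit. They are best known in the vessel wall, where they favour growth of smooth muscle cells and limit migration of endothelial cells.

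The mature arms are shown because the 3p arms share a seed and the 5p arms do not. Sequences are those of RefSeq for the rat assembly GRCr8, 5′ to 3′, with the seed in capitals:

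rno-miR-221-3p: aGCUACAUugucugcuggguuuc

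rno-miR-222-3p: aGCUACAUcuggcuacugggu

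rno-miR-221-5p: aCCUGGCAuacaauguagauuuc

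rno-miR-222-5p: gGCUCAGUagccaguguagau

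Compared position by position with no gap allowed, the 3p arms are identical over their first 8 bases and at 11 of the 21 positions that both have. Counted from 1 at the 5′ end, the differences from miR-221-3p to miR-222-3p are U9C, G10U, U11G, C12G, U13C, G14U, C15A, U16C, G17U and U20G, so that all lie behind the seed. The 5p arms match at 5 of 21 positions in the same comparison. Without gaps, an inserted base shifts all later positions, so these counts can understate the likeness of the arms. Behind the seed, for example, both 3p arms hold the run cugggu, but offset by 1 base. Of the 685 array miRNAs with a mature sequence in the RefSeq table, 2 have the seed GCUACAU, and these are miR-221-3p and miR-222-3p themselves.

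The hairpins are shown to place the arms, which are in capitals, the 5p arm first. Mir222 spans chrX:6022621-6022723 and Mir221 spans chrX:6023182-6023290 of GRCr8, both on the plus strand, with 458 bases between them. The array files name no genome build.

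Mir222: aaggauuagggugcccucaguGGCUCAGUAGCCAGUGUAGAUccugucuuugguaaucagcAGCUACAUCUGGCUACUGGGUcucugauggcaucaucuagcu

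Mir221: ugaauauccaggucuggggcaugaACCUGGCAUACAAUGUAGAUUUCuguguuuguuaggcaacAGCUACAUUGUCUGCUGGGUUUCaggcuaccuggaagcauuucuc

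In the RefSeq annotation no other gene starts between Mir222 and Mir221, and both lie within the spans of 2 uncharacterised long noncoding loci, LOC120099382 and LOC120099384. The nearest protein-coding gene on the side of Mir222 is Chst7, a sulfotransferase gene. The next miRNA gene on the side of Mir221 is Mir532, and the table holds no miRNA gene on the other side.

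Both guide strands gave a higher signal in the model group, and neither passenger strand was detected in either group. By the rule of the scanner software, detection of a probe needs a signal over 3 times the probe's error. The signal of a miRNA was taken here as the sum over its detected probes, in scanner units that are background-subtracted and not yet scaled between arrays. For the 4 arms the total that the software wrote holds no other signal than that of their own detected probes, or 0.1 where no probe was detected.

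The summed signal of miR-221-3p was 7.99, 12.1 and 8.20 on control arrays 1, 2 and 3. It was 22.9, 27.5 and 19.3 on model arrays 1, 2 and 3. The lowest model array stood above the highest control array, so the groups did not overlap. They did not overlap after the scaling described below either. On scaled values this held with the model group higher for 16.4% of all miRNAs tested. Array 2 was the highest in each group. MiR-221-3p was detected with both probes on all 6 arrays. The mean signal of the control group was 9.42 ± 2.30 (SD, n = 3), and that of the model group was 23.2 ± 4.12 (SD, n = 3).

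Each array was then divided by its 75th percentile over the 198 miRNAs detected on all 6 arrays, and log2 was taken. On this scale the log2 fold change of miR-221-3p, model against control, was 1.07 (standard error 0.12, 95% confidence interval 0.77 to 1.38, adjusted p = 0.00355 in limma), a fold of 2.10. The exact two-sided permutation test of the same values gave p = 0.10, and groups of 3 cannot give a smaller one. P-values here measure the spread between rats, 1 array each.

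For miR-222-3p no probe passed the detection limit on any control array. Its summed signal over detected probes was therefore 0 on the 3 control arrays, and it was 11.2, 14.6 and 9.51 on model arrays 1, 2 and 3, each with both probes detected. The pattern of no detection on the control arrays and detection on all 3 model arrays was shared with miR-31a-3p, miR-132-3p and miR-335. The opposite pattern was shown by 0 miRNAs. However, more miRNAs were detected on each model array than on any control array. For miR-335 the control sums over all probes, 3.78, 1.89 and 2.38, overlapped its model signals of 2.99, 3.64 and 2.71.

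The control arrays were not empty of miR-222-3p signal. Summed over both probes whether detected or not, the signal was 3.92, 5.28 and 2.04 on control arrays 1, 2 and 3, all above 0. Against these sums the model arrays were again all higher, with a mean of 11.8 ± 2.61 (SD, n = 3) against 3.75 ± 1.63 (SD, n = 3). Control array 3 was the lowest.

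**Figure D1:**
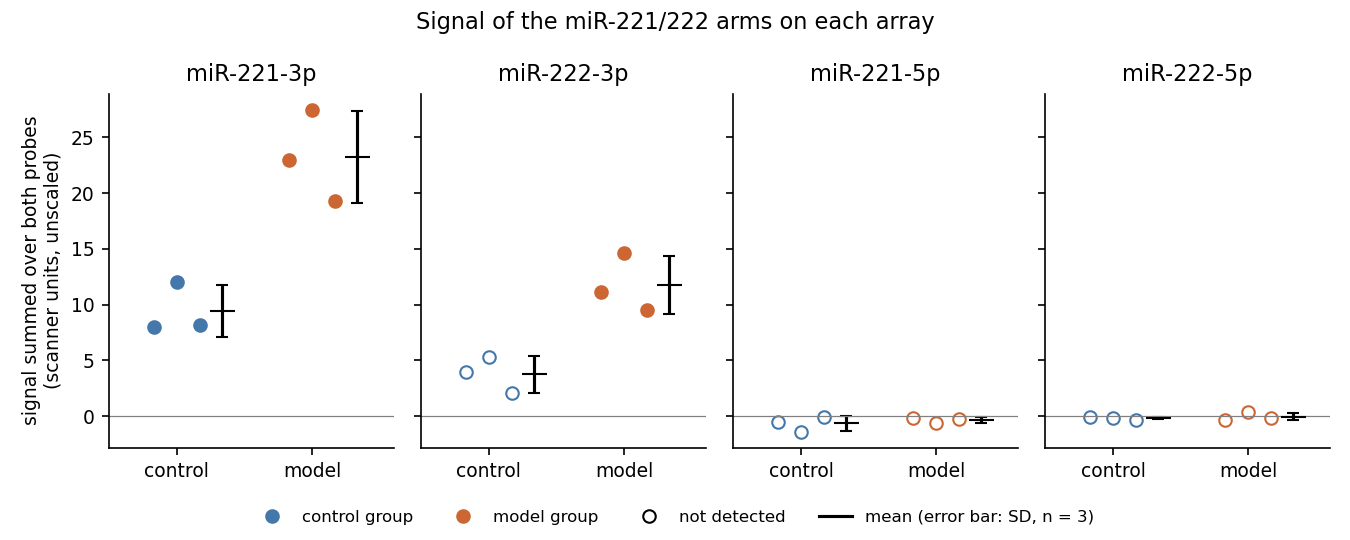
Signal of each arm summed over its 2 probes, in unscaled scanner units, for the control group and the model group. Points are arrays in the order 1, 2, 3, open points are arrays on which no probe of the arm was detected, and the dash with bars is the mean with its SD. The model arrays lie above all control arrays for miR-221-3p and miR-222-3p, and the 5p arms lie about 0 on every array.

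Since miR-222-3p was not well above background on the control arrays, the size of its fold change is uncertain. Against the mean of its own control sums, scaled and in log2, the rise of miR-222-3p in the model group was 2.82-fold. These sums exceeded the lowest detected signal on each control array, so this value is an estimate and no lower bound. It leaves out the spread between rats, and averaging the spots gave a lower value. The fit itself gave 2.49 on the log2 scale (standard error 0.14, adjusted p = 5.5e-04 in limma), with the control arrays set to a floor of -6.50, the highest of the lowest scaled signals of detected miRNAs over the arrays. That standard error holds no spread between the control rats, because the 3 floored values are equal. With both probes summed whether detected or not, the log2 fold change was 1.49 (95% confidence interval 0.82 to 2.16, adjusted p = 0.0120 in limma), and with the processed spot signals averaged it was 1.37 (adjusted p = 0.00500). All of these are changes in the same direction, and the size depended on how the undetected control values were treated.

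**Figure D2:**
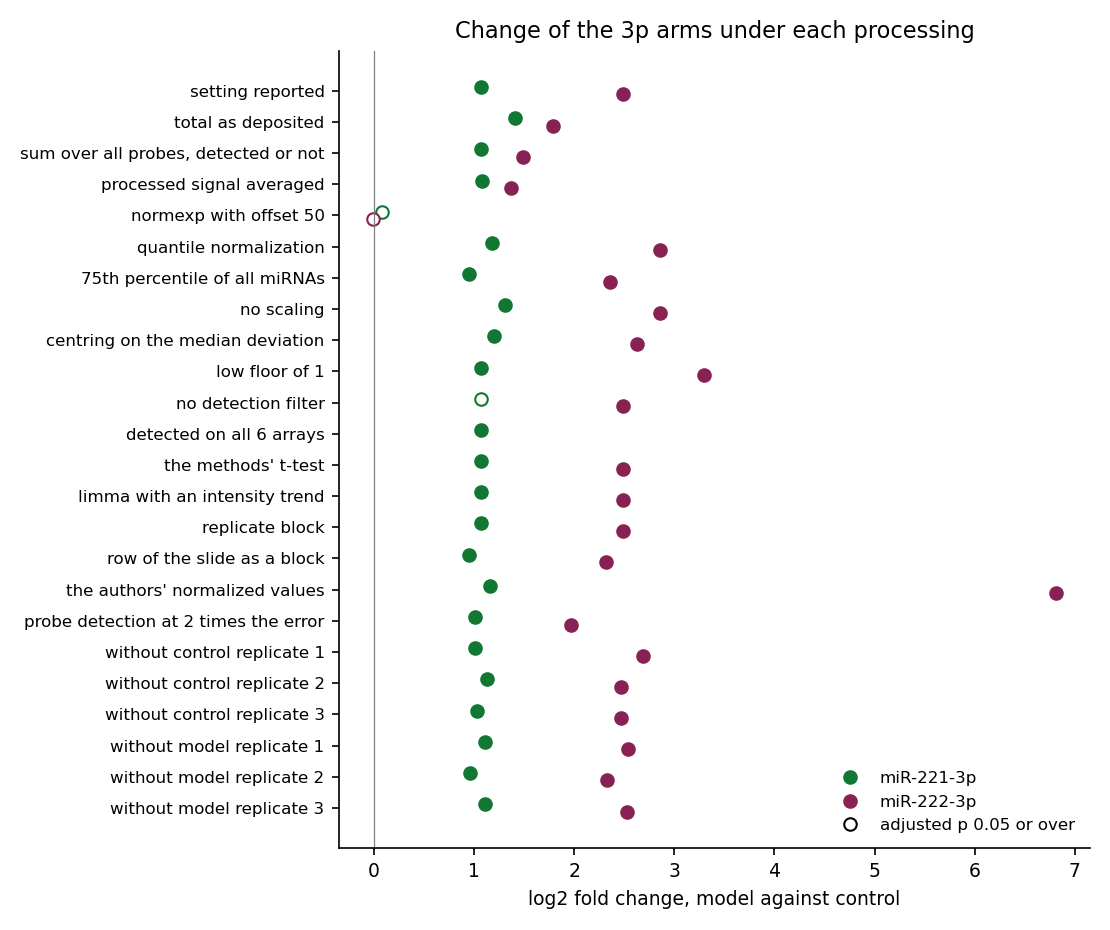
Log2 fold change of miR-221-3p and miR-222-3p, model against control, as reported and under each other processing of the same arrays. Open points have an adjusted p of 0.05 or over. Outside normexp, which gives 0.085 and -0.0050, miR-221-3p lies between 0.95 and 1.41 and miR-222-3p between 1.37 and 6.81.

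The 4 arms can be set against the whole array. The test covered the 214 miRNAs that were detected throughout the control group, the model group or both. Of these, 22 were higher in the model group at an adjusted p under 0.05 in limma (10.3%), and 27 were lower (12.6%). Of the cluster's 4 arms, 2 passed the detection filter. MiR-221-3p was among the 22. MiR-222-3p was called as well, but it entered through the model group alone, with equal floored control values, so its call is not read against this share. Among the 198 miRNAs detected on all 6 arrays, miR-221-3p ranked at 8 by log2 fold change. The median log2 fold change of the tested miRNAs was -0.14, and that of miR-221-3p lay 1.21 above it. A change over 2-fold at the same adjusted p was found for 11 miRNAs (5.14%), miR-221-3p included. The split of 22 higher and 27 lower moved with the scaling, to 30 and 16 with each array centred on its median deviation, 23 and 16 with quantile normalization, 19 and 47 when the 75th percentile was taken over all miRNAs, and 19 and 0 with no scaling. Between these last 2 settings the median of all tested miRNAs moved from -0.26 to 0.11.

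**Figure D3:**
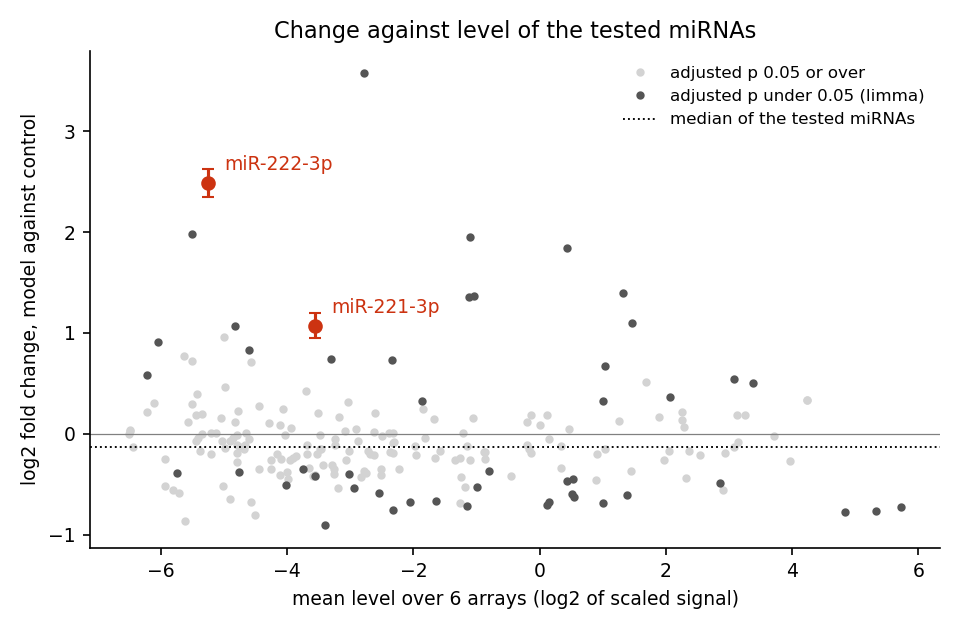
Log2 fold change of the 214 tested miRNAs, model against control, plotted against their mean level over the 6 arrays in log2 of the scaled signal. Dark points have an adjusted p under 0.05 in limma, the bars on the 3p arms are standard errors, and the dotted line is the median of -0.14. MiR-221-3p stands at 1.07 and miR-222-3p at 2.49, the latter with its control arrays at the floor.

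The 2 probes of a miRNA bind the same molecules and are no replicates, so each is given on its own. The probe sequences were not used here, and binding of one 3p arm to the probes of the other was not tested, which bears on the weak miR-222-3p signal and on the difference between the arms. For miR-221-3p, probe A_26_P00001505 gave 2.96, 5.00 and 3.76 on control arrays 1, 2 and 3, and 8.18, 10.6 and 6.88 in the model group. Probe A_26_P00002590 gave control signals of 5.03, 7.07 and 4.44 and model signals of 14.8, 16.9 and 12.4. Neither probe had an overlap between the groups. Among the 394 probes tested, selected by the same filter, of which 40 were higher in the model group (10.2%), the log2 fold changes were 0.90 (standard error 0.16, adjusted p = 0.00885 in limma) and 1.19 (standard error 0.13, adjusted p = 6.6e-04 in limma).

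For miR-222-3p, probe A_26_P00001508 gave control signals of 1.15, 2.39 and 0.55 and model signals of 4.46, 5.44 and 3.43. Probe A_26_P00001509 gave control signals of 2.77, 2.90 and 1.49 and model signals of 6.71, 9.19 and 6.08. The lowest model array was 1.44 times the highest control array for the first of these probes and 2.10 times for the second. With the control values at the floor the log2 fold changes were 1.16 and 1.89 (adjusted p = 9.5e-04 and 3.0e-04 in limma). From the measured control signals they were 1.69 and 1.42, so that the order of the 2 probes depended on the floor. Both probes passed the filter through the model group alone. Their adjusted p hold no spread between the control rats, because the floored control values are equal.

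The control values of the miR-222-3p probes ranged from 0.64 to 2.90 times their error, the highest just under the detection limit. On control arrays 1, 2 and 3, the signal was 1.21, 2.42 and 0.64 times its error for A_26_P00001508. It was 2.82, 2.90 and 1.70 times its error for A_26_P00001509. All 6 values were positive, 3 of them were over 2 times the error, and they stood above 79.3% to 99.4% of the undetected probes of their arrays. On the model arrays the signal of the same probes was 4.27 to 7.17 times its error.

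MiR-221-3p stood close to the limit from above on 1 array. Its probe A_26_P00001505 was at 3.01 times its error on control array 1, and the other control values of its probes were 4.00 to 5.93 times. On the model arrays both probes were at 6.72 to 8.86 times the error. With detection set at 2 times the error, an alternative chosen after seeing the data, miR-222-3p was detected on control arrays 1 and 2 and not on control array 3. Its log2 fold change was then 1.97 (adjusted p = 0.0377 in limma), with control array 3 at the floor.

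**Figure D4:**
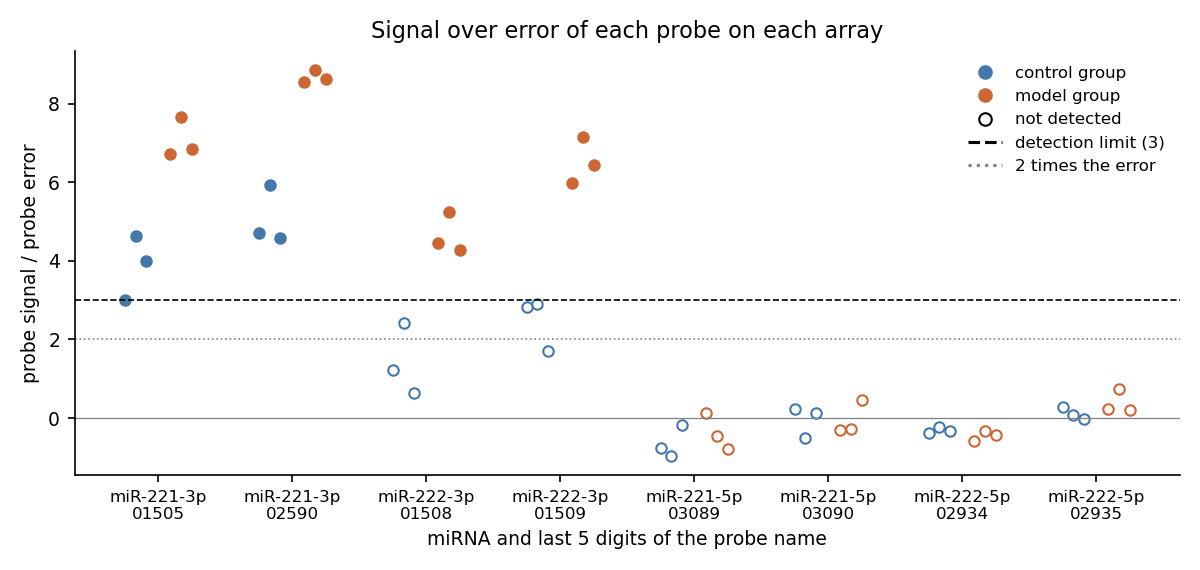
Signal of each of the 8 probes divided by its error on each array, with the control group at the left and the model group at the right of each probe. The dashed line is the detection limit of 3 and the dotted line is 2, and open points are not detected. The control values of the miR-222-3p probes lie between 0.64 and 2.90, just under the dashed line at the most, and the 5p probes lie about 0.

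At the level of single spots the groups overlapped for 3 of the 4 probes of the 3p arms, and only the spots of A_26_P00002590 were all higher in the model group. For miR-221-3p, the 48 spots of the control arrays ranged from 0.53 to 16.4 and the 48 spots of the model arrays from 9.93 to 38.7. The software marked 25 of the 48 control spots and 48 of the 48 model spots as well above background. For miR-222-3p, the control spots ranged from -0.64 to 10.2 and the model spots from 4.08 to 21.0. Of these, 1 of the 48 control spots and 37 of the 48 model spots were well above background. By the looser mark of a positive and significant signal, the counts for miR-222-3p were 38 and 48 of 48. Spots of 1 array share their RNA and are no replicates of a condition. No spot on any array was saturated.

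**Figure D5:**
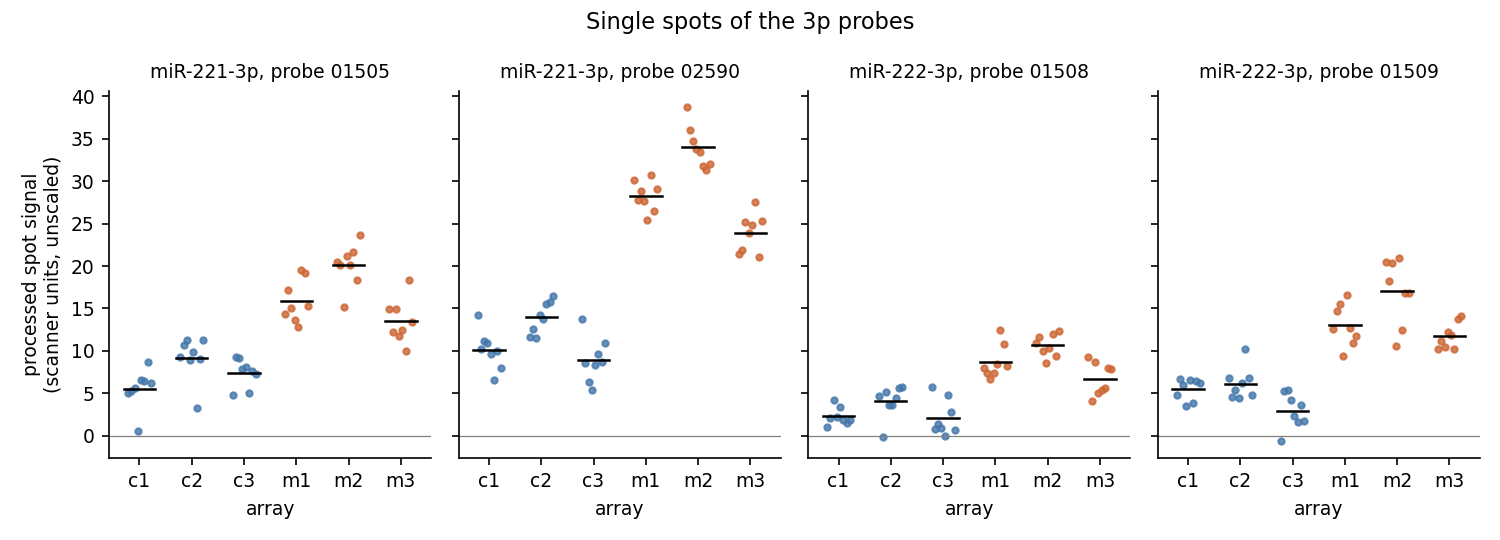
Processed signal of the 8 spots of each 3p probe on control arrays 1 to 3 (c1 to c3) and model arrays 1 to 3 (m1 to m3), in unscaled scanner units, with the mean as a line. Control spots of miR-222-3p reach 10.2, within the range of its model spots, and the means of the model arrays are higher for all 4 probes.

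The passenger strands were not detected. Summed over both probes, miR-221-5p gave -0.50, -1.40 and -0.06 on control arrays 1, 2 and 3, and -0.15, -0.65 and -0.24 in the model group. MiR-222-5p gave control sums of -0.08, -0.13 and -0.31 and model sums of -0.31, 0.36 and -0.16. The groups overlapped for both. The single probes ranged from -0.96 to 0.74 times their error, 15 of the 24 values were below 0, and none passed the limit at 3 or at 2 times the error. Of 192 spots of the 5p probes, 25 were marked as positive and significant (13.0%). For miR-221-5p these were 2 of 48 control spots and 5 of 48 model spots. For miR-222-5p they were 5 of 48 control spots and 13 of 48 model spots. This difference was not tested, and the share among other undetected probes was not counted. No fold change is given for these arms, and the arrays allow only the statement that the 5p arms were not detectable in either group. The 5p arms were 2 of 522 miRNAs detected on no array.

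The changes of the 3p arms, which come from 1 cluster, were compared with each other. With both probes summed whether detected or not, the change of miR-222-3p minus that of miR-221-3p was 0.42 on the log2 scale (exact two-sided permutation test, p = 0.20, n = 3 per group, smallest possible p = 0.10). In 8 of 9 pairs of a model and a control array the difference was in this direction. Without control array 3 it was 0.12, and without control array 1 it was 0.61, so that its size rested on the control arrays, where miR-222-3p was not well above background. A difference in change between the guide strands was thus not shown at this signal, and equal change was not shown either.

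Within the groups, array 2 was the highest for both guide strands, also after scaling. In the model group, array 2 stood 0.22 and 0.30 above the group mean in log2 for miR-221-3p and miR-222-3p, and arrays 1 and 3 stood 0.10 to 0.17 below it. In the control group, miR-222-3p varied more, with array 3 at -0.65 from the mean, and miR-221-3p stayed within -0.08 to 0.13.

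All 6 arrays were on 1 slide with 1 scan time. Row 1 of that slide held the 3 control arrays with model array 1, and row 2 held the other model arrays. Within row 1, model array 1 stood 0.95 above the control mean for miR-221-3p and 1.32 for miR-222-3p, summed over all probes. The model arrays of row 2 stood 1.13 and 1.58 above it. With the row as a block the log2 fold changes were 0.95 (adjusted p = 0.0299 in limma) and 2.32 (adjusted p = 0.00890 in limma, control arrays at the floor).

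The patterns most like that of miR-221-3p were looked for among the other 197 miRNAs detected on all 6 arrays. The measure was the root mean square distance over the 6 arrays between log2 profiles that each have their own control mean subtracted, where the median distance was 0.90. The nearest was miR-21-5p, a miRNA known for its part in fibroblasts of the injured heart, at 0.10. Its control signals were 289, 384 and 243 and its model signals 743, 983 and 603, again with array 2 the highest in each group. MiR-155-5p, known from activated macrophages and lymphocytes, followed at 0.18, then miR-140-3p at 0.21, miR-511-3p at 0.21 and miR-140-5p at 0.23. The log2 fold changes of these 5 were 1.10, 1.07, 1.35, 0.83 and 1.37, with adjusted p from 0.00147 to 0.0281 in limma. A near profile has a similar fold change by the way the distance is made, so that these miRNAs were higher is no separate result. MiR-21-5p, miR-155-5p and both miR-140 arms are also among those the study selected on the same arrays. All arrays are shared by these profiles, and the distances are descriptions.

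Other miRNAs of the X chromosome were counted. Of 102 array miRNAs that RefSeq places on X and on no other chromosome, the 4 arms left out, 20 were tested, 0 were higher and 3 were lower, beside 10.3% higher and 12.6% lower over all tested. Their median log2 fold change was -0.11 against -0.14 over all tested, so that they stood near the rest of the array. At adjusted p of 0.0132 to 0.0321 in limma, the 3 lower ones were miR-322-5p, miR-450a-5p and miR-503-5p. From the next miRNA gene, miR-532-5p gave control signals of 9.13, 12.7 and 7.86 and model signals of 11.0, 14.2 and 9.49. Its groups overlapped, and it stood at -0.01 on the log2 scale (standard error 0.15, adjusted p = 0.985 in limma).

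Other miRNAs that act on smooth muscle growth were read from 2 lists, beside 10.3% higher and 12.6% lower over all tested. Of 4 miRNAs known to promote it, 2 were higher, 0 were lower, and the median was 0.51. MiR-31a-5p changed by 3.57 (standard error 0.40, adjusted p = 0.00348 in limma) and miR-21-5p by 1.10 on the log2 scale, while miR-146a-5p stood at -0.42 (adjusted p = 0.204). MiR-31a-5p and miR-21-5p are among those the study selected on the same arrays, so their direction is not independent evidence. Of 5 miRNAs known to restrain smooth muscle growth, 0 were higher, 2 were lower and the median was -0.17. The lower ones were miR-1-3p at -0.76 (adjusted p = 0.0203 in limma) and miR-133a-3p at -0.68 (adjusted p = 0.0297), which are also the main miRNAs of heart and skeletal muscle, and miR-195-5p stood at 0.51 (adjusted p = 0.0626).

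Markers of the cell types in the tissue were set beside the rise of miR-221-3p and miR-222-3p. The counts of each list stand beside 10.3% higher and 12.6% lower over all tested miRNAs. The cardiomyocyte miRNAs were the defining ones of the tissue, and 5 of 6 were detected. Of these, 0 were higher and 3 were lower, with a median of -0.72, and miR-208b-3p was detected on no array. Their summed signal was 16568 to 26038 in the control group and 11750 to 15850 in the model group. This sum and those of the lists below are unscaled, unlike the log2 fold changes. The values used for scaling were 145, 189 and 146 on control arrays 1, 2 and 3. They were 203, 193 and 168 on model arrays 1, 2 and 3. MiR-208a-3p, from an intron of a cardiac myosin gene, had the largest difference at -0.87 (adjusted p = 0.0988 in limma). It was weak, with 3.72, 7.23 and 3.07 on control arrays 1, 2 and 3 and 3.14, 0 and 3.37 on model arrays 1, 2 and 3. On model array 2 it was not detected and held the floor value.

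In the fibroblast and matrix list, 4 of 7 tested were higher and 0 lower, with a median of 1.10. MiR-199a-5p, miR-214-3p and miR-199a-3p led it with 1.95, 1.84 and 1.40 (adjusted p of 0.00147 to 0.00455 in limma). MiR-29a-3p, miR-29b-3p and miR-29c-3p, known to restrain collagen messengers, stood at -0.13, -0.17 and -0.36 and did not pass the test (adjusted p of 0.102 to 0.486 in limma). The unscaled summed signal of the list was 2602 to 4251 in the control group and 4216 to 5627 in the model group, which overlap. MiR-199a-5p, miR-214-3p, miR-199a-3p and miR-21-5p of this list, like miR-221-3p and miR-222-3p, are among those the study selected on the same arrays. Their direction is therefore not independent evidence.

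The cell types in which the cluster is best known gave the following. Of the smooth muscle list, 2 of 4 were tested, miR-143-3p and miR-145-5p, both with -0.17 (adjusted p = 0.365 and 0.267 in limma), and miR-145-3p was detected on no array. Their summed signal was 733 to 1273 in the control group and 915 to 1100 in the model group. Of 6 endothelial miRNAs tested, 2 were higher and 3 lower, with a median of -0.12. The arms of miR-126a, made from the endothelial gene Egfl7, stood at -0.59 and -0.49 (adjusted p = 0.0132 and 0.0154 in limma), and miR-23b-3p at 0.50 (adjusted p = 0.00626).

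Of 7 leukocyte miRNAs tested, 2 were higher and 1 lower, with a median of -0.07. MiR-155-5p stood at 1.07, miR-146b-5p at 0.75 (adjusted p = 0.0217 in limma) and miR-150-5p, known from resting lymphocytes, at -0.60 (adjusted p = 0.0178), and miR-142-5p was detected on no array. MiR-155-5p too is among those the study selected on the same arrays. The summed signal of the leukocyte list was 486 to 760 in the control group and 506 to 570 in the model group. Of 2 red cell miRNAs tested, 1 was lower, miR-486 at -0.68 (adjusted p = 0.0132 in limma), and both arms of miR-144 were detected on no array. The unscaled summed signals of the endothelial list, 3289 to 4717 in the control group and 4466 to 5243 in the model group, overlapped. Those of the red cell list were 283 to 339 in the control group and 217 to 243 in the model group. The part of these cell types in the rise of miR-221-3p and miR-222-3p was not tested.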

How the data were processed

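Arrays were grouped by their labels. Per the labels and file headers, the authors deposited spot intensity values from Agilent Feature Extraction 10.7.1.1, background-subtracted and unscaled. They also deposited normalized log2 values of undescribed method, used as an alternative. The column medians of these, -3.22 to -3.31, equal the value of undetected miRNAs, their direction follows the scanner signal, and their centring is unknown.

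Members, lists and tests were chosen with earlier results of these data known. At most 3 miRNAs per list were named, by absolute log2 fold change, with the 5 nearest profiles and the neighbouring miRNA gene. The miR-29 members, the 3 lower X-linked miRNAs and the 3 that share the detection pattern of miR-222-3p were named with their values in view.

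Signals of detected probes were summed per miRNA, scaled, floored and put on log2. The filter of the study's methods was kept, which asks for detection on all arrays of either group. Testing used limma 3.58.1 under R 4.3.3 (lmFit and eBayes), with Benjamini-Hochberg adjustment over all miRNAs tested at 0.05, and was tested on simulated data. Exact permutation tests used scipy 1.17.1 under Python 3.11.15. The number of arrays limits the precision.

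Alternatives were the software's total, all probes summed, averaged processed signals, normexp with an offset of 50, other scalings, a floor of 1, no filter or a stricter one, the methods' t-test, an intensity trend, blocks for replicate number and slide row, the authors' values and leaving out each array. Detection at 2 times the error, the slide row for probes and row 1 alone for the difference between the arms were chosen after seeing the data.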

Additional observations from a re-analysis of the deposited data

How the results depend on the processing

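The higher level of miR-221-3p kept its direction under all 23 alternatives. Some of them left its group means as they were, at a change of 1.07, so its direction there is no separate support. These were all probes summed, a floor of 1, no filter or a stricter one, the methods' t-test, an intensity trend and the replicate block. Its adjusted p was under 0.05 under 21 alternatives, in limma or, for the methods' t-test, in that test. The exceptions were no detection filter, where all 758 miRNAs entered (1.07, adjusted p = 0.0590), and normexp, whose offset of 50 exceeds the signal of these probes (0.085, adjusted p = 0.447). MiR-222-3p kept its direction and an adjusted p under 0.05 under 21 of 22, and under normexp it was -0.0050 (adjusted p = 0.965). Its log2 fold change otherwise ranged from 1.37 to 6.81. The highest came from the authors' values, where the control arrays hold their column's lowest value, and a floor of 1 gave 3.29. It was not detected on all 6 arrays, so that this alternative gave no value. Measured control values of miR-222-3p entered only with all probes summed, averaged processed signals and normexp. With detection at 2 times the error they entered in part. In the other settings its control arrays held a floor or fill value, so its adjusted p there is no separate support. Leaving out 1 array gave 0.96 to 1.13 for miR-221-3p and 2.33 to 2.69 for miR-222-3p. With the methods' t-test, unadjusted p were 0.00109 and 7.5e-05 and adjusted p 0.0184 and 0.00797. By the study's threshold of fold and unadjusted p it gave 11 miRNAs higher and 0 lower, and after Benjamini-Hochberg adjustment 15 and 11. The 4 probes of the 3p arms that were called, of which those of miR-222-3p had floored control values, fell to 0 with normexp. The methods' t-test and the slide row as a block each called 3 of them. The count of called miRNAs, 49, was 19 with no scaling, 9 with no detection filter, 26 with the methods' t-test and 29 with the slide row as a block, and 14 to 39 with 1 array left out (14, 26 and 27 without control arrays 1, 2 and 3). With the software's totals 35 of 36 were higher, with the authors' values 23 of 37. With a replicate block it was 16, and both 3p arms stayed called (adjusted p = 0.0134 and 0.0121). The replicate numbers share no animal, and the correlations of deviations of same-numbered arrays were -0.26, 0.001 and 0.16. The difference between the changes of the arms was 0.29 from averaged processed signals and 0.12 to 0.61 with 1 array left out. The signal over background on the control arrays limits what can be said of miR-222-3p.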
